A study of Homo sapiens with 4 samples.

Results

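Guanylate-binding proteins (GBPs) are interferon-inducible GTPases, and the human family has 7 genes, GBP1 to GBP7, that lie beside each other on chromosome 1. All 7 were found by their gene symbol in the platform annotation, 1 transcript cluster (a probe set that summarises one locus) for each, among 21448 transcript clusters tested. They were measured in SUIT2 cells exposed to fb-PMT at 30 µM for 24 h (2 arrays) and in SUIT2 cells given phosphate-buffered saline for 24 h, called controls here (2 arrays). The drug fb-PMT joins the thyroid hormone analog tetraiodothyroacetic acid to polyethylene glycol with a fluorobenzyl group, and it was made to bind integrin αvβ3. The study asked which genes of mitochondrial function in cancer cells the drug changes. The labels do not say whether replicate arrays are separate cultures, so the p-values cover the spread between arrays alone, which may be technical.

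GBPs belong to the dynamin superfamily of large GTPases. Downstream of the interferon gamma receptor and the kinases JAK1 and JAK2, the signal switches on the transcription factor gene IRF1, and IRF1 takes part in driving GBP transcription. In human cells the proteins gather on bacteria and on vacuoles that hold them, where GBP1 to GBP4 form a platform that activates caspase-4, and GBP1, GBP2 and GBP5 end in a CaaX box that is prenylated and ties them to membranes.

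The labels call these cells glioblastoma, whereas SUIT-2 was derived from a pancreatic carcinoma. The 95th percentile of the 612 negative control probe sets on an array, log2 7.15 and 7.29 on the fb-PMT arrays and 7.38 and 7.22 on the control arrays, served as background. Of 7 epithelial markers, 5 (KRT8, KRT18, KRT19, EPCAM and CLDN4) were above it on all arrays, while CDH1 and MUC1 were below it, and the 4 measured glial markers (GFAP, OLIG2, SOX10 and S100B) were below it on all arrays. Leukocytes and endothelium are known for high GBP levels. Of 7 leukocyte and macrophage markers 6 were below background on all arrays, among them PTPRC, CD3E and CD14, as were the 3 endothelial markers. CD68, the other marker of the leukocyte list, was above it on all arrays at log2 11.14 and 11.17 with fb-PMT, against 11.50 and 11.26 in controls. The summed linear signal of the leukocyte list was 2510 and 2590 on the fb-PMT arrays, against 3200 and 2740 on the control arrays, most of it from CD68. Of 4 fibroblast markers 3 were below background on all arrays. The other, COL1A2, was above it on all, at log2 8.18 and 8.02 with fb-PMT, against 8.34 and 7.90 in controls.

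Promoter windows are shown for the members whose groups did not overlap and that the RefSeq table (GRCh38.p14) holds, with the one of IRF1 for comparison. The table had windows for GBP1, GBP3, GBP4, GBP6 and GBP7. Each was searched over the 250 bases before and the first 50 bases from the RefSeq start site, on both strands, for 2 motifs that do not overlap each other in these windows. The first is a core of the interferon-stimulated response element (ISRE, GAAANNGAAA, or TTTCNNTTTC on the other strand), which IRF factors bind. The second is the gamma-activated site (GAS, TTCNNNGAA, the same on both strands). Capitals mark the matches, and the last 20 bases printed lie downstream of the start.
GBP1 promoter: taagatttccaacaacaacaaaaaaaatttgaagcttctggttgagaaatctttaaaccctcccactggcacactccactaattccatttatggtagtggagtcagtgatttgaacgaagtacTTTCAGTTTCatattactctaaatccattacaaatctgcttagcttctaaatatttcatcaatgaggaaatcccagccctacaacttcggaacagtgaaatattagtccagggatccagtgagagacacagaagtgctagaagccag
GBP3 promoter: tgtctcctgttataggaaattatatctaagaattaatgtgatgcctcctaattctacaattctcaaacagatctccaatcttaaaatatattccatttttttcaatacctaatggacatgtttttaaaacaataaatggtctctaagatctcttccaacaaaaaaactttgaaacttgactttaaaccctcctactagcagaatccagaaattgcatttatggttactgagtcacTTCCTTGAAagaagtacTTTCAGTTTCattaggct
GBP4 promoter: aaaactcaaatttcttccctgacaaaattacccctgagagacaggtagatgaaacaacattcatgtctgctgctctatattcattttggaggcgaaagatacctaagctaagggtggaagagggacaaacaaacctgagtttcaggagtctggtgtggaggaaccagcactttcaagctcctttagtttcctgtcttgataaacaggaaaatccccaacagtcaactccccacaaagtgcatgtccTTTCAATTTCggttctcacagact
GBP7 promoter: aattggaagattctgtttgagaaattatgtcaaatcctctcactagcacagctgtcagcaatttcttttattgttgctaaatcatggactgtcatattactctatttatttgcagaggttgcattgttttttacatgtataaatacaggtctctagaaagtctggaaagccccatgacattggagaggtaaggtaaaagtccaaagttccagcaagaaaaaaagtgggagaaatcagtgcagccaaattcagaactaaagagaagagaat
IRF1 promoter: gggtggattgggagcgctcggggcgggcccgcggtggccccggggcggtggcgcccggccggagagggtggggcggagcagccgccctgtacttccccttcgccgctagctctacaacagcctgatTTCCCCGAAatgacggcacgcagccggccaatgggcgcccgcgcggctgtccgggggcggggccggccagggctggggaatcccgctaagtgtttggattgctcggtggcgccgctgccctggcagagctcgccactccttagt

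These windows are at chr1:89065189-89065458, chr1:89022847-89023116, chr1:89198923-89199192 and chr1:89175984-89176253, all on the minus strand, and for IRF1 at chr5:132490754-132491023, also on the minus strand. An ISRE core was found in 3 of the 5 member windows, those of GBP1, GBP3 and GBP4. In all 3 it read TTTCNNTTTC on the strand of the gene, with TTTCAGTTTC in both GBP1 and GBP3 and TTTCAATTTC in GBP4. Its first base lay 127 bases before the start in GBP1, 4 bases before it in GBP4, and at base 3 of the transcript in GBP3. The windows of GBP1 and GBP3 shared a run of 19 identical bases, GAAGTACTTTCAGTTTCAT, that contains the core, and no other pair of member windows shared more than 13. A GAS was found in GBP3, 15 bases before the start as TTCCTTGAA, and in IRF1, 124 bases before the start as TTCCCCGAA. The windows of GBP6 and GBP7 held neither string of letters. Of all 35116 promoter windows there, 3.57% held the ISRE core and 7.66% the GAS. A match is a description of the letters in a window and does not show that a factor binds there.

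**Figure D1:**
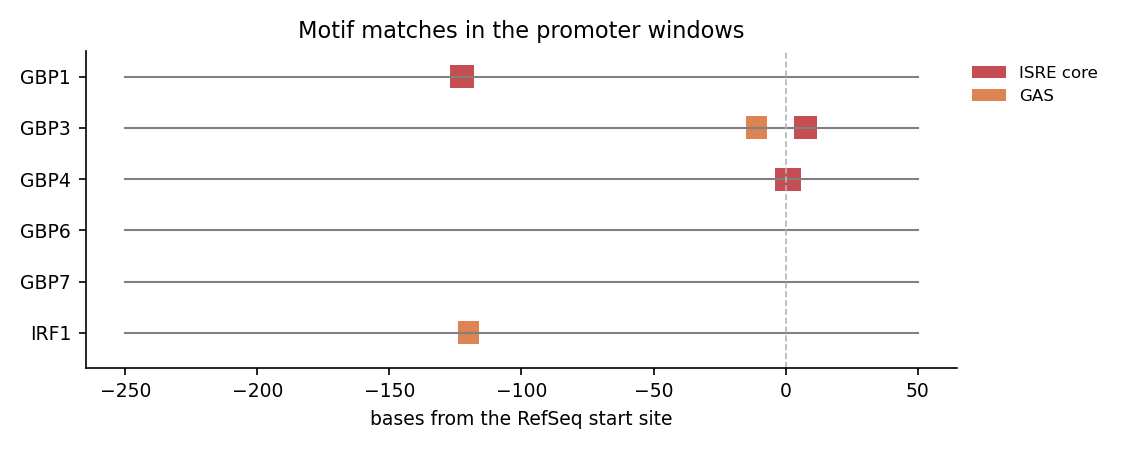
Motif matches in the promoter windows of 5 GBP genes and IRF1, by bases from the RefSeq start site (dashed line). Red boxes are ISRE cores, in GBP1, GBP3 and GBP4, and orange boxes are GAS matches, in GBP3 and IRF1.

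GBP4 had the largest measured difference of the family, GBP3 the next among members above background, and GBP1 and GBP2 were higher by a smaller amount. GBP5 and GBP6 were below background in both groups, and so was GBP7. The family was chosen with this contrast known, so its values are given as a description and without p-values. Values are RMA log2 values as deposited, and differences are fb-PMT minus control with limma's standard error (SE).

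GBP4, a member that in human cells takes part in recruiting caspase-4, had log2 values of 9.39 and 9.52 with fb-PMT, against 7.16 and 7.14 in controls. The groups did not overlap, and both control arrays were below background. The measured difference was 2.31 (SE 0.15, n = 2 each). Set against the background percentile of the control arrays in place of the values below it, GBP4 was at least 4.45-fold higher with fb-PMT.

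GBP3, which acts with GBP1 in activating caspase-4, had log2 values of 13.01 and 12.84 with fb-PMT, against 11.26 and 11.52 in controls. All 4 arrays were above background, and the groups did not overlap. GBP3 was 2.89-fold higher (log2 difference 1.53, SE 0.17), with differences of 1.32 to 1.75 over the 4 array pairs (1 fb-PMT array minus 1 control array).

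GBP1, which binds bacterial lipopolysaccharide and starts the coat that the others join, had log2 values of 8.05 and 8.43 with fb-PMT, against 7.42 and 7.19 in controls. Only 1 of the control arrays was above its background, so the 1.91-fold difference (log2 0.94, SE 0.19) rests on values near the floor. The array pairs gave 0.63 to 1.24, the widest spread among the 4 members above background with fb-PMT.

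GBP2, a prenylated member that also inhibits the protease furin, had log2 values of 12.00 and 11.98 with fb-PMT, against 11.21 and 11.13 in controls. It was above background on all arrays, and its replicates lay close together. The difference was 1.77-fold (log2 0.82, SE 0.15), and 0.78 to 0.87 over the array pairs. Among the 9199 transcript clusters above background on both arrays of a group, 1.79% had a log2 difference at least as large as that of GBP2.

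GBP7, a member related to GBP4, had log2 values of 5.57 and 5.89 with fb-PMT, against 4.73 and 4.33 in controls. The groups did not overlap, yet all 4 values lay below background, so no fold is given. GBP5, linked in mouse cells to the NLRP3 inflammasome and in human cells to inhibition of furin, had 3.34 and 3.38 with fb-PMT, against 3.31 and 3.02 in controls. GBP6 had 3.36 and 3.88 with fb-PMT, against 3.41 and 3.90 in controls, and its groups overlapped. Whether GBP5 and GBP6 are expressed at all in these cells is not detectable from such values.

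**Figure D2:**
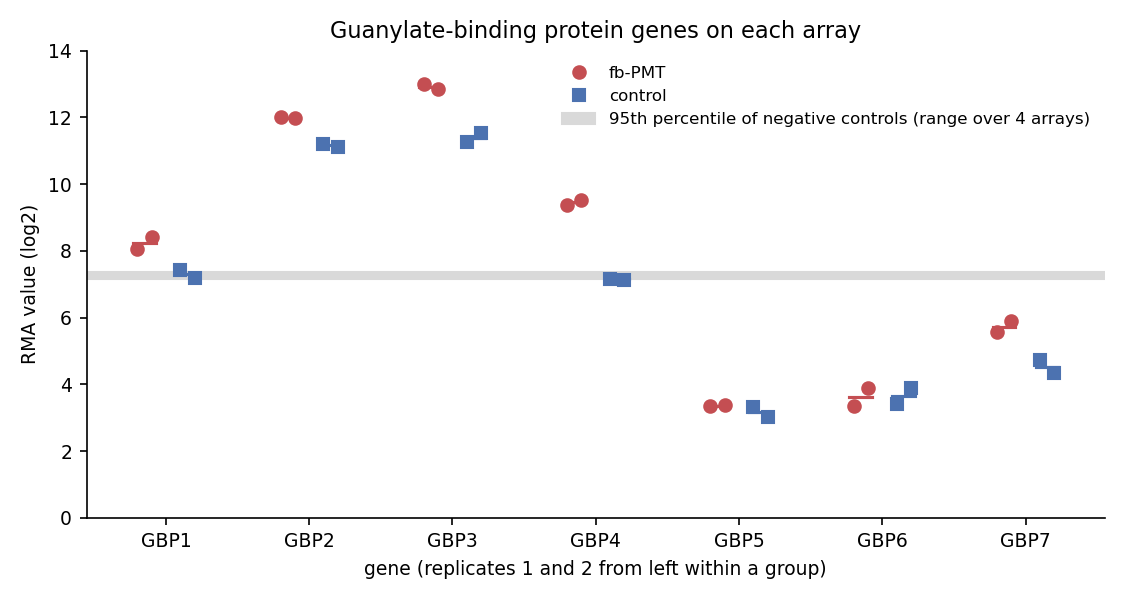
RMA log2 values of the 7 GBP genes on each array, with group means as lines. GBP1 to GBP4 are above the grey band of negative controls (log2 7.15 to 7.38) on both fb-PMT arrays, GBP4 is below each control array's own percentile, and GBP5 to GBP7 are below it throughout.

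Both fb-PMT arrays were above both control arrays in 6 of 7 members, against 20.2% of all transcript clusters, and the median log2 difference was 0.936 over the family and -0.0173 over all transcript clusters. One member, GBP4, was among the transcript clusters that passed limma at an adjusted p of 0.05 (0.0979% of 21448 were called higher and 0 lower, while 1222 were higher and 1177 lower at an unadjusted p under 0.05). Since the family was chosen from this contrast, nothing is read from these counts. GBP4 was not called without fb-PMT replicate 1, without fb-PMT replicate 2, without control replicate 1 or without control replicate 2, and its difference then ran from 2.25 to 2.37.

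The count of members called depended on the variance model and on the filter for dim probe sets. With an intensity trend in the variance, GBP2, GBP3, GBP4 and GBP7 were called, where 1.37% of all transcript clusters were called higher and 0.513% lower. Of the 5 members kept when the 30% of transcript clusters with the lowest means were left out, GBP3 and GBP4 were called, where 0.406% were called higher and 0.04% lower. Of the 4 members kept when only transcript clusters above background on both arrays of a group were tested, all 4 were called, where 2.55% were called higher and 0.902% lower, and 2 of these, GBP1 and GBP4, were kept only through their fb-PMT arrays. The 7 genes have similar sequences, above all GBP1 with GBP3 and GBP4 with GBP7, and probes of one may also read another, which was not tested. In RNA of whole cultures, more cells that express a gene and more RNA per cell cannot be told apart.

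The genes beside the family were set next to it as a description. In the RefSeq order the members run GBP3, GBP1, GBP2, GBP7, GBP4, GBP5 and GBP6, with no other measured gene between them. The 5 members from GBP3 to GBP4 had differences of 0.82 to 2.31, of which that of GBP7 lies below background, and GBP5 (0.20) and GBP6 (-0.04), at the other end of the cluster, were also below background. Of the 8 measured genes on each side, 0 of 16 were called in either direction by limma, 0 were higher and 0 lower at an unadjusted p under 0.05, and their median log2 difference was 0.0564. Over all 21448 transcript clusters 0.0979% were called higher and 0 lower, and 1222 were higher and 1177 lower at that unadjusted threshold. With so few calls over the table, 0 of 16 sets no limit along the chromosome to the differences. The 12 neighbours above background on at least 1 array had differences of -0.31 to 0.43.

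GTF2B, a general transcription factor and the nearest measured gene before GBP3, had log2 values of 10.80 and 10.70 with fb-PMT, against 10.62 and 10.56 in controls. LRRC8B, a volume-regulated anion channel subunit and the nearest measured gene after GBP6, had 7.94 and 7.99 with fb-PMT, against 7.93 and 7.96 in controls. The largest differences among neighbours were those of LRRC8C, another channel subunit (0.43, SE 0.30, adjusted p = 0.641 in limma), whose groups overlapped, and ZNF326 (-0.31, SE 0.17, adjusted p = 0.55 in limma). The difference of LRRC8C was 0.04 to 0.82 when 1 array was left out.

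**Figure D3:**
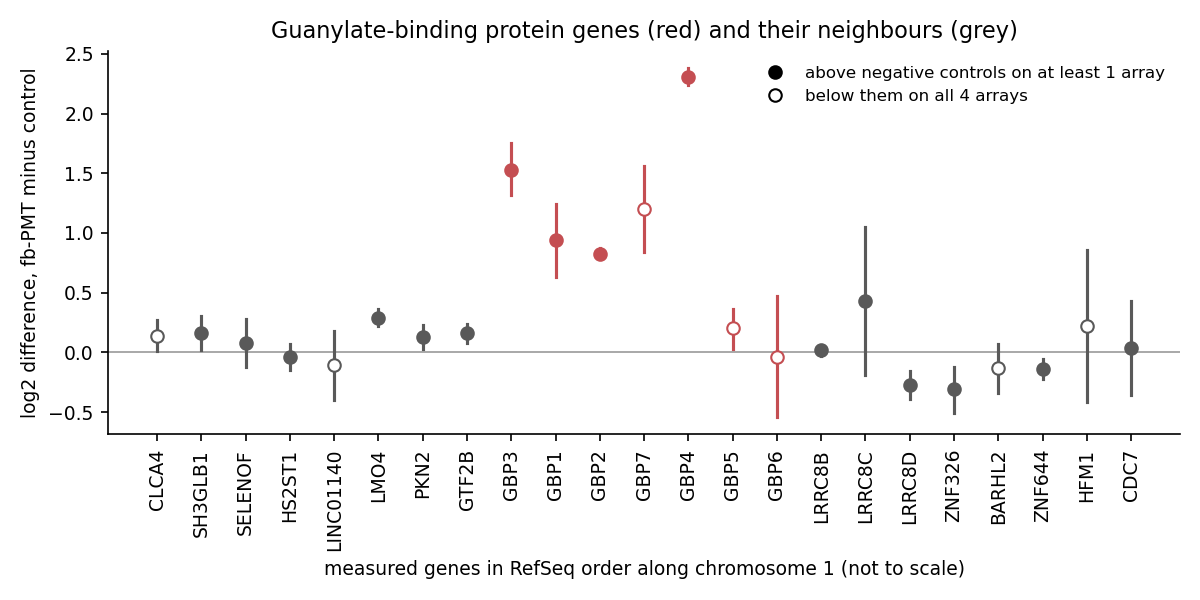
Log2 differences (fb-PMT minus control) of the GBP genes in red and of 8 measured neighbours on each side in grey, in RefSeq order. Points are means and lines span the 4 array pairs. The members from GBP3 to GBP4 lie at 0.82 to 2.31, while the neighbours lie between -0.31 and 0.43.

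IRF1, a transcription factor that takes part in driving GBP transcription, was higher with fb-PMT. A link between its difference and those of the family was not tested. IRF1 had log2 values of 10.35 and 10.56 with fb-PMT, against 7.83 and 7.64 in controls, a 6.57-fold difference (log2 2.72, SE 0.17, limma adjusted p = 0.0179). The call was lost without fb-PMT replicate 1, without fb-PMT replicate 2 and without control replicate 2 (limma adjusted p of at most 0.284, against 0.0421 without control replicate 1), while the difference stayed at 2.61 to 2.82.

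IRF1 was the 1 gene called among 22 measured genes of interferon gamma signalling and its regulators. Over all transcript clusters 0.0979% were called higher and 0 lower. The median log2 difference of the 22 was 0.138. In 10 of 22 both fb-PMT arrays were above both control arrays, against 20.2% of all transcript clusters. In 3 of 22 both were below, against 22.3%. Of the 22, 9 were below background on all arrays, among them IFNG in the count above and SOCS3 in the count below. JAK1 had 12.82 and 12.81 with fb-PMT, against 12.40 and 12.55 in controls (difference 0.34, SE 0.15, limma adjusted p = 0.484). The receptor chain genes IFNGR1 (0.32, SE 0.18, limma adjusted p = 0.561) and IFNGR2 (-0.14, SE 0.15, limma adjusted p = 0.771) did not pass, and JAK2 was below background on all arrays. IFNG, the ligand gene, was below background too, with 3.45 and 2.99 with fb-PMT, against 2.78 and 2.75 in controls.

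The lists were chosen with earlier results of these data known, so their counts, medians and p-values are given as a description. Among 29 measured targets of interferon gamma outside the family, 2 rose in limma's test and 0 fell. Of all transcript clusters 0.0979% were called higher. By sign 24 of the 29 were higher and 5 lower, and the median log2 difference was 0.925. In 21 of 29 both fb-PMT arrays were above both control arrays, against 20.2% of all transcript clusters, and in 1 both were below, against 22.3%. TNFSF10, which encodes the death ligand TRAIL, had 15.72 and 15.65 with fb-PMT, against 13.41 and 13.41 in controls (4.84-fold, adjusted p = 0.0179). PSMB9, an immunoproteasome subunit, had 13.90 and 13.87 with fb-PMT, against 12.14 and 12.09 in controls (3.41-fold, adjusted p = 0.0345). Neither was called when any 1 of the 4 arrays was left out, with adjusted p of 0.0582 to 0.284 for TNFSF10 and 0.0979 to 0.482 for PSMB9. Below background on all arrays were 8 of the 29, including the chemokine genes CXCL9 and CXCL10 and the tryptophan-degrading enzyme gene IDO1, named after their values were seen. Their log2 values were 2.54 to 3.91 over all arrays and both groups.

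Among 34 type I interferon response genes, 0 were called in limma's test (21 higher and 0 lower at an unadjusted p under 0.05). Over all 21448 transcript clusters 1222 were higher and 1177 lower at that unadjusted threshold. By sign 32 of the 34 were higher, with a median log2 difference of 0.573. In 25 of the 34 both fb-PMT arrays were above both control arrays, against 20.2% of all transcript clusters. These counts rest in part on dim genes, since 9 of the 34 were below background on all arrays. Among the 9 are IFI44L, TRIM22 and IFIT1, which the 21 include. The members with the largest differences were MX1 and IFIT3. MX1, an antiviral GTPase, had 9.20 and 9.01 with fb-PMT, against 7.51 and 7.51 in controls (3.02-fold, limma adjusted p = 0.0556). IFIT3, an antiviral tetratricopeptide protein, had 9.73 and 9.80 with fb-PMT, against 8.18 and 8.23 in controls (2.95-fold, limma adjusted p = 0.0506). The ISRE core was in 23 of the 29 promoter windows that the table holds for this list (79.3%), in 12 of 21 for the interferon gamma targets (57.1%) and in 0 of 16 for the neighbours of the family. Of the measured genes of interferon gamma signalling, 1 of 17 had it.

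The list of GBP partners at bacteria and the inflammasome also holds FURIN, the gene of the protease that GBP2 inhibits. It had 0 of 17 called in limma's test, with 10 higher and 1 lower at an unadjusted p under 0.05. Over all 21448 transcript clusters 0.0979% were called higher and 0 lower, and 1222 were higher and 1177 lower at that unadjusted threshold. Of the 17, 6 were below background on all arrays, among them CASP5 and FURIN, which the 10 include. The median log2 difference of the 17 was 0.464, with 11 higher and 6 lower. CASP1, the inflammasome protease, had 8.65 and 8.95 with fb-PMT, against 7.35 and 7.18 in controls. It was at least 2.83-fold higher (limma adjusted p = 0.0686), with both control arrays below background. APOL3, an apolipoprotein that acts after GBP1 in killing bacteria and that stands in the interferon gamma list too, had 7.48 and 7.47 with fb-PMT, against 5.95 and 6.05 in controls (at least 1.13-fold higher, limma adjusted p = 0.058). CASP4, the caspase that the GBP platform activates, had 13.85 and 13.85 with fb-PMT, against 13.23 and 13.07 in controls (1.63-fold, limma adjusted p = 0.255), and it is named after its value was seen.

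Of the enzymes that prenylate and trim CaaX proteins, 0 of 7 measured genes were called by limma (1 higher and 0 lower at an unadjusted p under 0.05), with a median log2 difference of 0.0628 and all 7 above background in a group. FDPS, which makes the farnesyl donor, had the largest difference (0.45, SE 0.16, limma adjusted p = 0.403), and ICMT, the carboxyl methyltransferase, the next (0.28, SE 0.16, limma adjusted p = 0.572). Of 15 other members of the dynamin superfamily 0 were called by limma (2 higher and 0 lower at an unadjusted p under 0.05), with 7 higher and 8 lower and a median of -0.001. Of these 15, 3 were below background on all arrays, among them EHD3, which the 2 include. Beside the counts of both lists stand 0.0979% of 21448 transcript clusters called higher and 0 lower, with 1222 higher and 1177 lower at the unadjusted threshold. MX1, which the type I interferon list shares, had the largest difference among the 15. EHD2, a membrane-remodelling ATPase of caveolae, had the next among those above background (-0.46, SE 0.20, limma adjusted p = 0.48).

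**Figure D4:**
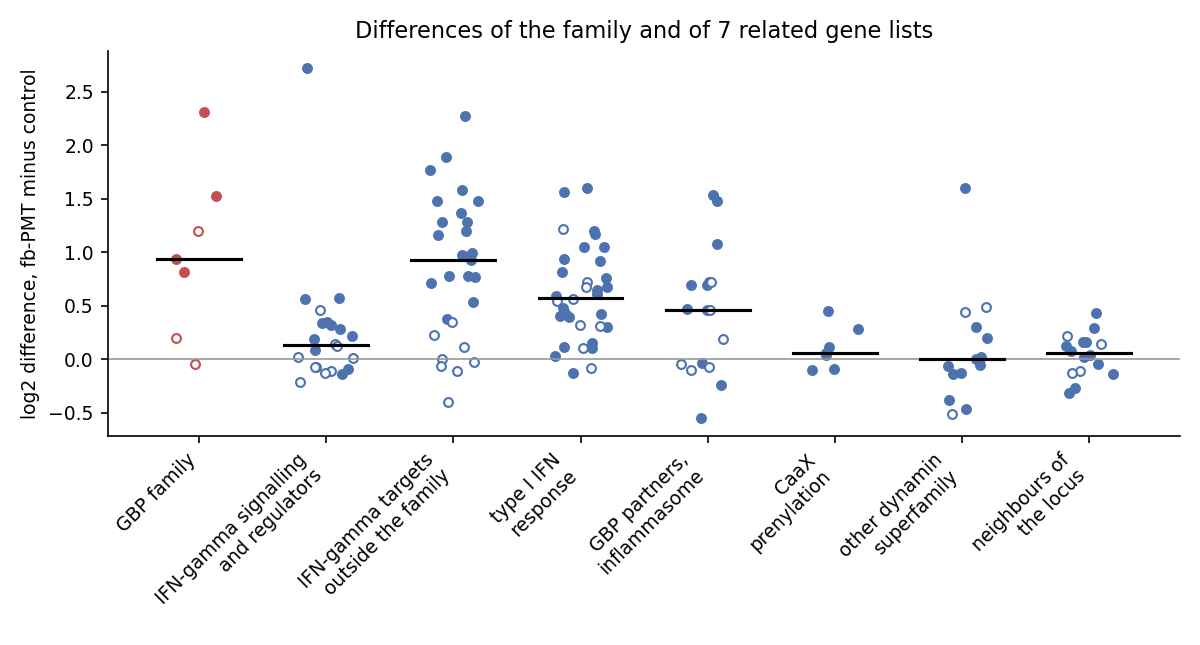
Log2 differences (fb-PMT minus control) of the 7 GBP genes and of 7 lists, each point 1 gene, open where the gene was below the negative controls on all 4 arrays, with medians as black lines. The medians are 0.936 for the family, 0.925 for interferon gamma targets, 0.573 for type I interferon genes and between -0.001 and 0.464 for the other lists.

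The genes most like the leading members over the 4 arrays were found by distance, after each gene was centred on its own control mean, among 7968 other genes above background on both fb-PMT arrays. Nearest to GBP4 were TNFSF10 (distance 0.149), PDZK1, a scaffold of membrane transporters (0.2), SAT1, which acetylates polyamines (0.283), and STC1, a secreted glycoprotein (0.288). Their log2 differences were 2.13 to 2.27, against 2.31 for GBP4, and like GBP4, PDZK1 was below background on both control arrays, as was APOL3. Nearest to GBP3 were TAPBPL, a chaperone-like factor of class I peptide loading (0.0885), and the apolipoprotein L genes APOL2 (0.127), APOL3 (0.173) and APOL1 (0.184). TAPBPL had 12.26 and 11.98 with fb-PMT, against 10.47 and 10.67 in controls. With 4 arrays such likeness reflects mainly the size of the difference.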

How the data were processed

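RNA of 4 SUIT2 samples (2 fb-PMT, 2 control) was hybridised to whole-transcript arrays of 1 colour. Per the submitters' processing notes, the authors made the deposited log2 values with RMA in Transcriptome Analysis Console 4.0.1.36. Neither the RMA variant nor the genome build of the array is given in the sources used here. For dim probe sets RMA understates differences, and the number of arrays limits the precision (median SE of a log2 difference 0.175). Of 24351 probe sets, 2903 controls were left out and 21448 transcript clusters were fitted with limma 3.58.1 in R 4.3.3, without covariates or intensity trend. P-values are two-sided and Benjamini-Hochberg adjusted over all of them (threshold 0.05). An exact permutation test of 2 against 2 arrays cannot go below 0.333. Replicate numbers did not pair the arrays by the labels (correlation of deviations 0.042). A value below the 95th percentile of the negative controls counts as below background, and a group with both arrays below it gives only a bound.

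The members and lists were chosen with earlier results of these data known. Genes named besides the members are IRF1, JAK1, JAK2, IFNGR1 and IFNGR2, the called genes of each list (at most 3 in each direction) or, with none called, the 2 largest differences above background, and the 4 nearest genes by distance. Some listed genes are not reported here. GTF2B, LRRC8B and the other exceptions were named for their place or after their values were seen. Promoter sequences and gene order are those of RefSeq, GRCh38.p14. Alternatives were a replicate block, an intensity trend (also robust), both filters on dim probe sets, quantile normalization, median centring and leaving out each array.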

Additional observations from a re-analysis of the deposited data

How the results depend on the processing

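The log2 differences of GBP1 to GBP4 were above 0 under each alternative, which was largely fixed in advance. The replicate block, both trends and both filters leave a difference unchanged. Where the groups do not overlap, leaving out 1 array cannot change its sign. The differences were 0.79 for GBP2 and 2.28 for GBP4 with quantile normalization. With 1 array left out, which shifts a difference by a part of the replicate gap, they were 0.75 to 1.12 for GBP1, 0.79 to 0.86 for GBP2, 1.40 to 1.66 for GBP3 and 2.25 to 2.37 for GBP4. The counts of calls depended on the variance model and the filter, while quantile normalization and median centring changed none of them by more than 1.5 times. Among all transcript clusters 21 were called, against 403 with an intensity trend, 394 with the robust trend, 67 without the lowest 30%, 318 above the negative controls and 1 to 9 when 1 array was left out. The members called were 1, against 4 with either trend (GBP2, GBP3, GBP4 and GBP7), 2 of the 5 kept without the lowest 30% (GBP3 and GBP4), 4 of the 4 kept above the negative controls, where GBP1 and GBP4 passed the filter only through the fb-PMT arrays, and 0 without any 1 array.

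Calls in the lists follow in turn for the trend, the robust trend, without the lowest 30% and above the negative controls. Over all transcript clusters 1.37% were called higher with the trend, 0.406% without the lowest 30% and 2.55% above the negative controls. With the robust trend these were 286 of 21448. The interferon gamma targets had 18 of 29, 17 of 29, 8 of 23 and 18 of 21 called, all higher. The type I interferon genes had 10 of 34, 10 of 34, 2 of 33 and 9 of 24, and the other dynamin superfamily 1 in each, all higher. The partners at bacteria had 6 of 17, 5 of 17, 2 of 13 and 4 of 11 called, of which 1 with either trend, SFN, was lower and the others higher. Some genes called above the negative controls passed that filter only through the fb-PMT arrays. These were CASP1 and APOL3 among the partners, APOL3 and TAP1 among the interferon gamma targets and IFIT5 among the type I genes. When 1 array was left out the interferon gamma targets had 0 called, and the interferon gamma signalling list 0 or 1. With the replicate number as a block, which the labels do not support as a pairing, 1 transcript cluster was called over the table and 0 in the family, in the interferon gamma signalling list and among the interferon gamma targets. Each symbol of the family had 1 transcript cluster, so averaging over several gave no value. The causes were not tested. All values of GBP5, GBP6 and GBP7 lay below background, so the size of their differences cannot be resolved. The call of GBP7 with either trend rests on such values.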
